A study of Mus musculus with 15 samples.

Results

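Trbv14 and Trbv15 are adjacent V genes in the middle of the mouse TCR β locus, and the data hold them as TCRBV14-01 and TCRBV15-01. Their TCRs were found by the V gene name given to each rearrangement, with no measured level used in the choice. Of 35 V genes named in the files, these 2 carried 1947 of 29992 listed rearrangements, 950 with TCRBV14-01 and 997 with TCRBV15-01. Productive rearrangements, which are in frame without a stop codon, numbered 678 for Trbv14 and 496 for Trbv15 when summed over samples. Another 261 and 486 were out of frame, and 11 and 15 held a stop codon.

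The 15 samples came from 5 untreated female C57BL/6 mice, bought at 6 weeks of age, each bearing B16F10GP melanomas on both flanks. B16F10GP is a B16F10 line that expresses the glycoprotein of LCMV after lentiviral transduction, so every tumor carried that viral antigen. Tumor 1 was implanted on the right flank on day 0 and tumor 2 on the left flank on day 3, and on day 19 both tumors and the TdLN, the lymph node draining tumor 1, were taken, which gave 5 samples of each tissue. CD8+ PD-1+ T cells were sorted from each, with CD44 also named in the paper's methods for the tumors. Their genomic DNA was read for TCR β rearrangements. The groups are therefore tissues of the same untreated mice, and no treated or tumor-free sample entered. The rearrangements carry no expression of CD8, PD-1 or CD44, so the sorted phenotype could not be checked in these data.

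A TCR β chain is made when a V gene, a D gene and a J gene are joined, with bases trimmed from the ends and untemplated N bases added between them. The resulting CDR3 loop contacts the antigen peptide, whereas the V gene encodes the loops that mainly contact the MHC molecule. A V gene is cut next to its recombination signal, a heptamer and a nonamer separated by a spacer. A T cell whose first rearrangement was out of frame can rearrange its other allele, so out-of-frame rearrangements remain in the DNA of mature T cells without encoding a receptor. Here each unique productive rearrangement is called a TCR, its count of templates is its clone size, and shares are percentages of the TCRs or templates with a V gene assigned.

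On chromosome 6 of GRCm38, Trbv14 lies at chr6:41135145-41135616 and Trbv15 at chr6:41141188-41141658, both on the forward strand and each with 2 exons, and 5571 bases separate them. Trbv13-3 lies 4559 bases upstream of Trbv14 and Trbv16 lies 10081 bases downstream of Trbv15. Trbd1 begins 397584 bases after Trbv14 and 391542 bases after Trbv15, so both lie at nearly the same distance from the D and J genes. The 3′ ends below are shown because they are what is trimmed and joined. They run from 45 bases before the CDR3 to the end of the nonamer, at chr6:41135556-41135655 and chr6:41141597-41141697, with the germline part of the CDR3 in capitals.
Trbv14: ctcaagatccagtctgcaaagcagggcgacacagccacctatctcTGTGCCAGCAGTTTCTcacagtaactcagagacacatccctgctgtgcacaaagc
Trbv15: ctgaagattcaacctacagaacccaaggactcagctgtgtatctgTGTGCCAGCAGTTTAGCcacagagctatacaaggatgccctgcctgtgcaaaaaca
The germline CDR3 part is 16 bases in Trbv14 and 17 in Trbv15. Both heptamers match the consensus CACAGTG at 6 of 7 bases, with a spacer of 23 bases, and the nonamers match the consensus nonamer at 6 of 9 bases in Trbv14 and 7 of 9 in Trbv15. Over their second exons the genes were identical at 186 of 295 aligned bases, or 63.1%.

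The 3 tissues differed widely in the number of TCRs. The TdLN samples held 1290 to 5722 unique productive TCRs, whereas tumor 1 held 183 to 366 and tumor 2 held 50 to 553. Productive templates ran from 3254 to 9105 for the nodes, from 3601 to 6137 for tumor 1 and from 238 to 3975 for tumor 2, where mouse 4 was the shallow sample. Counting intervals given below are 95% Wilson intervals and cover counting error only.

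Some samples of different mice shared nucleotide rearrangements, which bears on every value of the tumors. Tumor 1 had 11.5% to 49.2% of its TCRs in the TdLN of its own mouse and at most 4.75% in that of another. Tumor 2 of mice 1, 2 and 3 had 14.1% to 43.2% of their TCRs in common with each other, whereas all tumor 2 pairs with mouse 4 or 5 stayed at or below 0.604%. Out-of-frame rearrangements, which encode no receptor, were also shared among tumor 2 of mice 1, 2 and 3, at 10.5% to 40.4%. Tumor 2 of mouse 3 had 1.55% of its TCRs in its own TdLN. Rearrangements found in another mouse held 7.92% to 93.4% of the productive templates of the 10 tumor samples, against 1.80% to 37.2% in the TdLN. For Trbv14 they were 10 of 42 TCRs in tumor 2 and 8 of 62 in tumor 1, and for Trbv15 16 of 37 and 4 of 40.

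The V gene names were checked against the bases. Over the last 30 bases before the CDR3 and its first codon, TCRs that differed at 3 or more positions from the commonest sequence of their V gene were 5 of 574 for Trbv14 and 5 of 419 for Trbv15 in the TdLN. In tumor 1 they were 3 of 62 for Trbv14 and 9 of 40 for Trbv15, and in tumor 2 none of 42 and 8 of 37. Across all V genes the TdLN had 1.59% of such TCRs, tumor 1 had 8.94% and tumor 2 had 6.91%. The 9 Trbv15 TCRs of tumor 1 had 1 template each, and 7 of them were listed with 17 or more V bases trimmed, as many as or more than the germline CDR3 part of Trbv15 holds. The name TCRBV15-01 is thus less certain for about 1 in 5 of its tumor TCRs than for those of the TdLN, and shares of TCRs, clone sizes, reading frames, trimming and CDR3 lengths were also computed without them.

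In the TdLN, Trbv14 ranked 13 and Trbv15 ranked 15 by mean share among the 20 V genes that averaged 1% or more of unique TCRs. Trbv14 made up 4.83%, 4.23%, 3.33%, 3.86% and 3.08% of unique TCRs in the TdLN of mice 1 to 5, a mean of 3.87% ± 0.70 (SD, n = 5). Trbv15 made up 2.15%, 3.19%, 3.41%, 2.59% and 2.55%, a mean of 2.78% ± 0.51 (SD, n = 5). Trbv14 was the higher of the pair in 4 of 5 mice, all but mouse 3, and the ranges of the pair overlapped. The V genes ranked next to them, at 3.73% ± 0.32 and 2.58% ± 0.30, lay within their spread. Their neighbours on the locus were both more frequent, Trbv13-3 at 5.67% ± 0.37 and Trbv16 at 6.73% ± 0.52 (SD, n = 5), without overlap with either gene in the TdLN.

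Neither gene's share of unique TCRs changed between tissues at an adjusted p of 0.05. In tumor 1, Trbv14 made up 4.08%, 3.08%, 2.75%, 6.01% and 4.76% of unique TCRs in mice 1 to 5, a mean of 4.14% ± 1.32 (SD, n = 5). In tumor 2 it made up 1.81%, 3.04%, 1.55%, 2.0% and 3.797%, a mean of 2.44% ± 0.95 (SD, n = 5). Tumor 1 thus had the higher share in 5 of 5 mice when set against tumor 2, although the ranges overlapped.

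Trbv15 made up 2.45%, 4.11%, 2.20%, 3.01% and 2.08% of unique TCRs in tumor 1, a mean of 2.77% ± 0.83 (SD, n = 5). In tumor 2 it made up 3.02%, 3.87%, 2.58%, 4.0% and 1.08%, a mean of 2.91% ± 1.18 (SD, n = 5). The 3 means of Trbv15 lay within 0.141 percentage points of each other. These shares rest on 4 to 12 Trbv15 TCRs in a tumor 1 sample and 2 to 14 in a tumor 2 sample, so that in tumor 2 of mouse 4 the 2 TCRs found gave an interval of 1.10% to 13.5%.

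**Figure D1:**
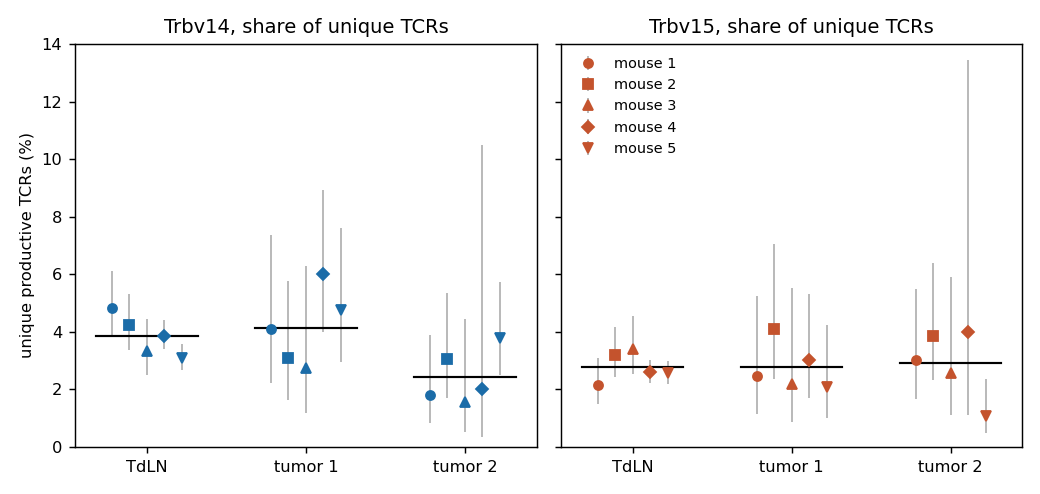
Share of unique productive TCRs that use Trbv14 (left) or Trbv15 (right) in each tissue, in percent. Each point is 1 sample, its shape gives the mouse, grey bars are 95% Wilson intervals and black lines are means over 5 mice. The Trbv14 means are 3.87%, 4.14% and 2.44% and those of Trbv15 are 2.78%, 2.77% and 2.91%, with wide intervals in the tumors.

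For tumor 1 minus TdLN the difference in the share of unique TCRs was 0.27 percentage points for Trbv14 (SD of the 5 within-mouse differences 1.52, exact permutation test, adjusted p = 0.859) and -0.0101 for Trbv15 (SD 0.837, adjusted p = 0.992). For tumor 2 minus TdLN it was -1.43 for Trbv14 (SD 1.37, exact permutation p = 0.0317, adjusted p = 0.159) and 0.131 for Trbv15 (SD 1.22, adjusted p = 0.944). For tumor 1 minus tumor 2 it was 1.70 for Trbv14 (SD 1.52, exact permutation p = 0.0476, adjusted p = 0.476) and -0.141 for Trbv15 (SD 0.777, adjusted p = 0.905). The background was as low, since 0 of 20 V genes, or 0%, passed the adjusted threshold in each of these comparisons. Unadjusted, the permutation test gave 7, 6 and 2 V genes, with Trbv14 among the 6 and the 2 and Trbv15 in none. After adjustment, edgeR's quasi-likelihood test gave 3, 3 and 0, with neither Trbv14 nor Trbv15 among them. Within mice 1 to 3 and within mice 4 and 5, the Trbv14 difference was -0.827 and 1.92 for tumor 1 minus TdLN, and -2.0 and -0.573 for tumor 2 minus TdLN.

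The out-of-frame rearrangements separated Trbv14 from Trbv15 more sharply than the productive ones, and in the opposite order. In the TdLN, Trbv14 made up 2.93%, 1.51%, 1.37%, 2.80% and 2.35% of unique out-of-frame rearrangements in mice 1 to 5, whereas Trbv15 made up 4.04%, 4.18%, 5.02%, 4.60% and 4.52%. The ranges did not overlap, and Trbv14 was the lowest of the 20 V genes by this measure while Trbv15 ranked 11. In the productive TCRs of the same samples Trbv14 stood higher, by 1.67 percentage points ± 0.79 (SD, n = 5), in 5 of 5 mice. Trbv15 stood lower, by -1.69 ± 0.42 (SD, n = 5), also in 5 of 5 mice.

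The share of unique productive TCRs over that of out-of-frame rearrangements was 1.92 ± 0.67 for Trbv14 (SD, n = 5), second highest of the 20 V genes, and 0.621 ± 0.098 for Trbv15, second lowest. With 5 mice the exact sign-flip test cannot go below p = 0.0625, the value both genes had, and the adjusted p was 0.104. All 5 mice went up in 6 of 20 V genes, or 30%, and down in another 6 of 20, or 30%, so a direction held by all 5 mice was common among V genes.

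Counted within each gene, productive TCRs were 76.2% ± 5.5 of productive and out-of-frame rearrangements together for Trbv14 in the TdLN, and 52.4% ± 4.1 for Trbv15 (SD, n = 5). In the TdLN the values ran from 69.3% to 84.1% for Trbv14 and from 49.3% to 59.1% for Trbv15. The tumors kept that order, with 69.3% ± 10.6 against 49.4% ± 12.9 in tumor 1 and 58.2% ± 15.7 against 38.5% ± 12.7 in tumor 2. Trbv14 had the higher productive percentage in 15 of 15 samples, by 4.76 to 41.7 percentage points. Without rearrangements 3 or more bases off their V gene, in either frame, the values were 76.4% ± 5.9 against 53.0% ± 3.4 in the node, 73.0% ± 9.6 against 46.1% ± 6.9 in tumor 1 and 60.4% ± 17.1 against 48.4% ± 14.7 in tumor 2. Left out for this were 21 of 53 out-of-frame Trbv15 rearrangements in tumor 2, 11 of 46 in tumor 1 and 9 of 387 in the node. For Trbv14 they were 3 of 26, 7 of 33 and 3 of 202. The tumor 2 ranges then overlapped, at 33.3% to 75.0% for Trbv14 and 33.3% to 66.7% for Trbv15. The tissues of a mouse share rearrangements, so the 15 samples are not independent.

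**Figure D2:**
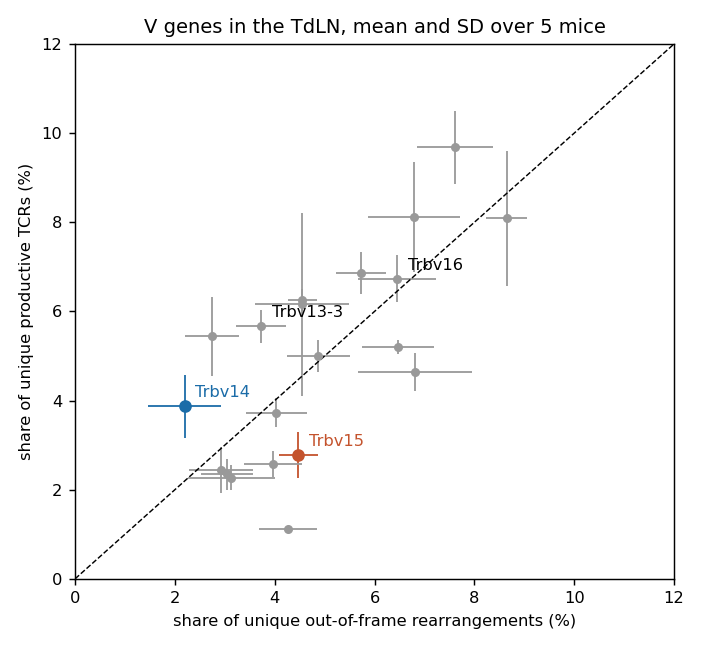
Share of unique productive TCRs (vertical axis, percent) against the share of unique out-of-frame rearrangements (horizontal axis, percent) in the TdLN for 20 V genes. Points are means and bars SDs over 5 mice, and the dashed line marks equal shares. Trbv14, at 2.19% and 3.87%, lies above the line and Trbv15, at 4.47% and 2.78%, below it.

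Counted by templates, Trbv15 was lower in tumor 1 than in the TdLN of every mouse. It made up 1.24%, 2.61%, 2.69%, 2.53% and 2.65% of productive templates in the TdLN of mice 1 to 5, and 0.147%, 0.714%, 0.352%, 0.283% and 0.389% in tumor 1. The groups did not overlap, and the difference was -1.97 percentage points (SD of within-mouse differences 0.516, exact permutation p = 0.00794, the smallest that 5 against 5 samples allow, adjusted p = 0.0397). By this measure 4 of 20 V genes, or 20%, were called, and the same number, 20%, had groups that did not overlap with the lower values in tumor 1. All 4 had that smallest p, and their adjusted p depends on how many V genes reached it and how many were tested. The call can thus change with other V genes while the values of Trbv15 stay the same. A lower share in tumor 1 in every mouse was seen in 8 of 20 V genes, so that direction was common. Templates of a sample sum to 100%, so that a share also moves with the clones of other V genes.

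The call for Trbv15 was lost in other fits. In edgeR's quasi-likelihood test on the templates Trbv15 fell by 1.34 on the log2 scale with an adjusted p of 0.191, and 0 of 20 V genes, or 0%, were called. With the mouse as a replicate block, Trbv15's fall was 1.47 on the log2 scale in edgeR (adjusted p = 0.325) and the exact sign-flip test gave p = 0.0625, which is its smallest. Leaving out 1 mouse at a time kept the direction, at -1.88 to -2.19 percentage points, with adjusted p of 0.0816 to 0.143. With 4 samples against 4 the smallest p is 0.0286, and 12 of the 20 V genes would have to reach it for any call, so these p-values say nothing about stability. Without the rearrangements also found in another mouse the difference shrank to -0.923 percentage points (exact permutation p = 0.190), and tumor 1 of mouse 2, at 3.86%, then stood above all 5 TdLN samples. Library names are spelled differently for mice 1 to 3 than for mice 4 and 5, and the Trbv15 difference was -1.78 percentage points within the first set and -2.25 within the second. For Trbv14 the same values were -2.59 and 7.62, the second being the mean of a lower value in mouse 4 and a higher one in mouse 5, where 1 clone held 95.2% of the Trbv14 templates of tumor 1.

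**Figure D3:**
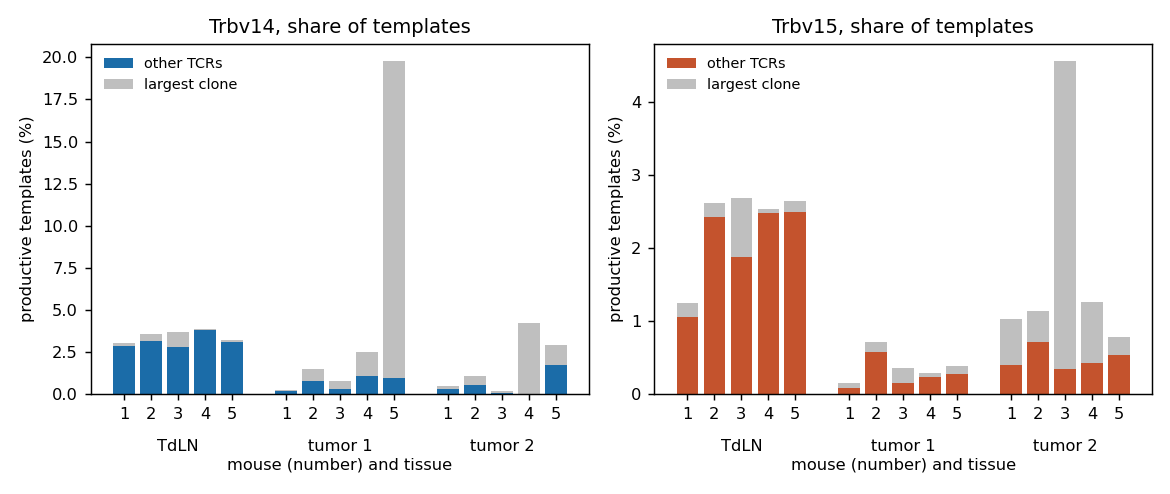
Share of productive templates that use Trbv14 (left) or Trbv15 (right) in each of 15 samples, in percent, with the largest clone of the gene in each sample in grey. The vertical scales differ between the panels. A single clone makes the highest bar in each panel, 679 of 713 Trbv14 templates in tumor 1 of mouse 5 and 163 of 176 Trbv15 templates in tumor 2 of mouse 3.

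Trbv15 clones of tumor 1 were small. The largest Trbv15 clone of a tumor 1 sample held 3 to 8 templates. A Trbv15 TCR held 2.17 ± 0.87 templates on average in tumor 1 and 1.76 ± 0.37 in the TdLN (SD, n = 5), and TCRs with 1 template made up 56.0% ± 23.4 and 60.3% ± 11.7. Without the TCRs of uncertain V name, 14 of 31 Trbv15 TCRs of tumor 1 had 1 template, a mean of 39.0% ± 28.2 against 59.7% ± 11.6, and the mean size was 2.67 ± 1.10 templates against 1.77 ± 0.36. Over all V genes a tumor 1 sample held at least 3601 productive templates in at most 366 TCRs. No Trbv15 clone of tumor 1 ranked above 36 in its sample by templates. By mean, Trbv15 held 0.377% of the templates of tumor 1 and 2.77% of its unique TCRs. Trbv13-3, at 1.79% and 4.30%, and Trbv29, at 1.30% and 3.70%, also held less of the templates, whereas Trbv16 held more, at 15.2% and 8.05%. A smaller share of templates than of unique TCRs was thus not particular to Trbv15.

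Trbv14 held 3.04%, 3.57%, 3.65%, 3.87% and 3.18% of productive templates in the TdLN of mice 1 to 5, and 0.261%, 1.45%, 0.780%, 2.49% and 19.8% in tumor 1. In 4 of 5 mice tumor 1 was thus below the whole range of the TdLN, and in mouse 5 it was above it. The mean difference was 1.49 percentage points (SD 8.48, exact permutation test, adjusted p = 1.0), and without mouse 5 it was -2.29. When the largest clone of each V gene was left out of each sample, Trbv14 held 2.16% of templates in tumor 1 and 3.77% in the TdLN, lower in 5 of 5 mice (exact permutation p = 0.00794, adjusted p = 0.0454). Under the same removal Trbv15 held 0.983% and 2.42% (adjusted p = 0.0454). That removal called 7 of 20 V genes, or 35%, so the fall was not particular to the pair. The pattern also depended on rearrangements found in another mouse. With only those left out, Trbv14 held 1.88%, 4.98%, 2.10%, 5.12% and 21.2% of templates in tumor 1 of mice 1 to 5. The TdLN then ran from 3.23% to 4.46%. Tumor 1 of mice 2, 4 and 5 thus lay above that range, and tumor 1 of mice 1 and 3 below it.

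**Figure D4:**
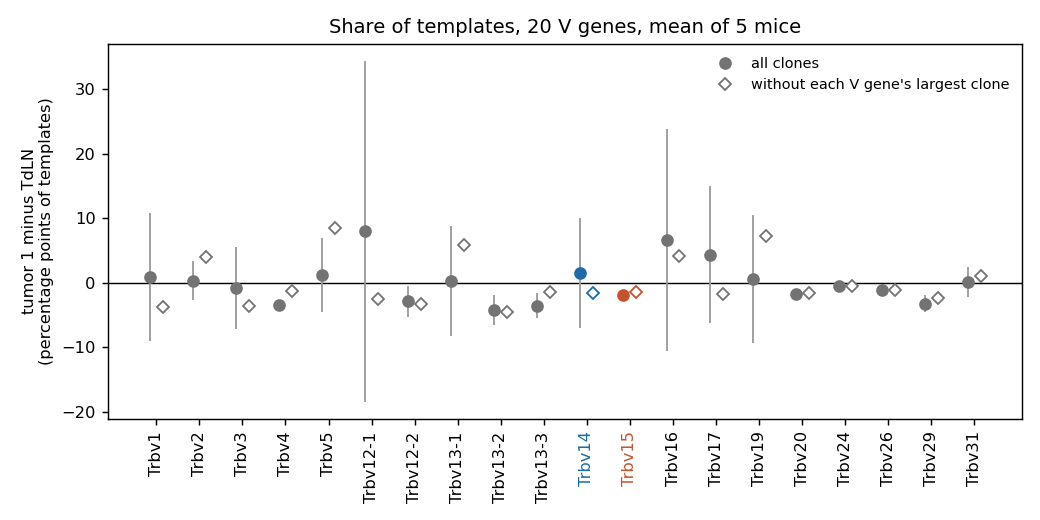
Difference in the share of productive templates, tumor 1 minus TdLN, in percentage points, for 20 V genes. Filled points are means of 5 mice with the SD of the within-mouse differences, and open diamonds are the means after the largest clone of each V gene was taken out of each sample. Trbv14 moves from 1.49 to -1.61 with that removal, whereas Trbv15 stays below 0 at -1.97 and -1.44.

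In tumor 2, Trbv14 held 0.478%, 1.04%, 0.182%, 4.20% and 2.90% of productive templates and Trbv15 held 1.03%, 1.13%, 4.57%, 1.26% and 0.774%. Tumor 2 was below the TdLN in 4 of 5 mice for each gene, at a mean difference of -1.70 (SD 1.64, exact permutation test, adjusted p = 0.206) and -0.594 percentage points (SD 1.51, adjusted p = 0.783). No V gene passed (0%) against the TdLN, where 8 had an unadjusted p below the threshold and edgeR called 1. After the largest clone of each V gene was left out, Trbv15 was lower than the TdLN in 5 of 5 mice (-1.01 percentage points, exact permutation test, adjusted p = 0.0454), as one of 7 V genes of 20, or 35%, that passed. Trbv14 then had an adjusted p of 0.0722. Without the shallow tumor 2 of mouse 4, an alternative chosen after seeing the data, Trbv14 was lower than the TdLN by -2.31 percentage points (exact permutation test, adjusted p = 0.0397), and 4 of 20 V genes, or 20%, passed.

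Between the tumors, Trbv15 had the smaller share of templates in tumor 1 in 5 of 5 mice without overlap, a difference of -1.38 percentage points (SD 1.61, exact permutation p = 0.00794, adjusted p = 0.159). It was the only V gene of 20, 5%, with that pattern, and 0% passed the adjusted threshold. Its p was the smallest that this test allows, and 1 V gene alone at that p cannot pass after adjustment over 20. The adjusted p thus does not decide whether Trbv15 differed between the tumors. Without the largest clone of each V gene the groups overlapped, 1 of 5 mice was higher in tumor 1, and the difference was -0.429 (exact permutation test, adjusted p = 0.577, 0% of V genes called). Without tumor 2 of mouse 3 it was -0.672. The groups also overlapped without rearrangements found in another mouse, which held 86.1% of the productive Trbv15 templates of tumor 2. Trbv15 then held 0.392% to 3.86% of templates in tumor 1 and 0.603% to 5.36% in tumor 2. Mouse 2 alone had the higher share in tumor 1, at 3.86% against 3.77%. For Trbv14 the difference was 3.20 (SD 7.72, adjusted p = 0.822) and -0.23 without mouse 5.

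The clones behind these shares are shown by sequence, each 87 bases long as listed, with the CDR3 in capitals from its first codon. The last CDR3 codon lies beyond the 87 bases and is not shown. The first 3 use Trbv14 and the last 3 use Trbv15, and they were chosen as the largest of a tissue or as those found in most mice.
Trbv14 with Trbj2-7: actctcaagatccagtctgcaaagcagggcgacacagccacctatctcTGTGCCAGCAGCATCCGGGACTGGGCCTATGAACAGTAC
Trbv14 with Trbj2-5: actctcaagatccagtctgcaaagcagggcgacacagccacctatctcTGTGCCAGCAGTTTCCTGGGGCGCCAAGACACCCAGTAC
Trbv14 with Trbj2-1: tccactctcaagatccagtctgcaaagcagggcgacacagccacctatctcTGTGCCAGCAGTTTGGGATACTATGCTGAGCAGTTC
Trbv15 with Trbj2-4: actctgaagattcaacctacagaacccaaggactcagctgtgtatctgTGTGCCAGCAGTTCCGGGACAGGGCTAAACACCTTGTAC
Trbv15 with Trbj1-5: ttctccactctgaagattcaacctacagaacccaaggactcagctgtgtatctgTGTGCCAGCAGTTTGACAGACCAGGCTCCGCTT
Trbv15 with Trbj1-3: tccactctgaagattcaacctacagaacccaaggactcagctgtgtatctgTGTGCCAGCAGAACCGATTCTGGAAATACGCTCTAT
In all 6 the capitals begin with the germline letters of the V gene shown above, and they part from them where trimming ended.

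The Trbv14 clone with Trbj2-7 was the largest TCR of tumor 1 of mouse 5, with 679 templates or 18.9% of the sample's productive templates. It held 95.2% of the Trbv14 templates there. It was trimmed by 5 V bases and carried 5 N bases, and it was not in the TdLN of mouse 5. In tumor 2 of that mouse it had 1 template. Its CDR3 amino acid sequence occurred in 4 other nucleotide rearrangements with 5 templates in all. All 4 were near-copies, which match a clone with at least 50 times their templates over the last 40 bases, so they cannot be told apart from error copies of the large clone.

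In mouse 4 the Trbv14 clone with Trbj2-5 had 74 templates in tumor 1, and with 10 templates it was the only Trbv14 TCR of tumor 2. It also had 7 templates in tumor 1 of mouse 5. In mouse 2 the clone with Trbj2-1, joined with 1 N base, counted 30 templates in tumor 1, 18 in tumor 2 and 2 in the node, and in mouse 1 it counted 7 in tumor 2. In the TdLN the largest Trbv14 clone had 35 templates in mouse 3, against 7 to 13 in the other 4 mice.

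The Trbv15 clone with Trbj2-4 was confined to tumor 2 among these samples, with 163 templates in mouse 3, 25 in mouse 1 and 14 in mouse 2. It held 92.6%, 61.0% and 36.8% of the Trbv15 templates of those samples. The same 87 bases, with 2 N bases on each side of the D gene, 4 V bases and 5 J bases trimmed, were thus listed in 3 mice, and these are the 3 tumor 2 samples that shared out-of-frame rearrangements too. With rearrangements also found in another mouse left out of all samples, Trbv15 held 2.63% of templates in tumor 2 and 2.61% in the TdLN, a difference of 0.0273 percentage points. Taking the clone's sample of mouse 3 out left the mean Trbv15 share of tumor 2 lower than the TdLN by -1.30 percentage points (exact permutation test, adjusted p = 0.0952).

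The clone with Trbj1-5 was the largest Trbv15 clone of both the TdLN and tumor 1, with 32 templates in the TdLN and 8 in tumor 1 of mouse 3, and it was listed without N bases. The one with Trbj1-3 was found in 2 mice, with 5 templates in tumor 1 of mouse 2, 2 in each of that mouse's other samples, and 2 in tumor 2 of mouse 1. Over all samples 9 of 646 distinct Trbv14 rearrangements, or 1.39%, and 10 of 462 of Trbv15, or 2.16%, were found in 2 or more mice, against 2.07% of all V genes. None of Trbv14 and 1 of Trbv15 reached 3 mice.

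TCRs of tumor 1 that were also in the TdLN of the same mouse numbered 13 of 62 for Trbv14 and 13 of 40 for Trbv15, 21.0% and 32.5%, beside 30.05% over all V genes. By mouse the Trbv14 numbers were 4 of 10, 4 of 9, 3 of 5, 1 of 22 and 1 of 16 in mice 1 to 5, so that mice 4 and 5 held most Trbv14 TCRs and shared the fewest. For Trbv15 they were 2 of 6, 6 of 12, 2 of 4, 1 of 11 and 2 of 7. By templates, 7.66% of Trbv14 and 51.2% of Trbv15 in tumor 1 belonged to shared TCRs, against 72.8% over all V genes. Of the 953 Trbv14 templates of tumor 1, 679 belonged to the clone of mouse 5, which was not listed in its TdLN.

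By mean over mice, both genes were joined to Trbj2 genes more often than the other V genes tested in the TdLN. The Trbj2 share was 75.7% ± 9.4 of Trbv14 TCRs and 75.3% ± 3.3 of Trbv15 TCRs (SD, n = 5). These were the 2 highest means of the 20 V genes, whose median was 67.7%. Trbv17 was close, at 75.0% ± 5.1, so a high Trbj2 share was not particular to the pair. For Trbv14 it was 83.1%, 71.0%, 88.4%, 67.4% and 68.8% in mice 1 to 5, so the 2 nodes with the most Trbv14 TCRs, those of mice 4 and 5, lay close to that median. For Trbv15 it ran from 70.9% to 79.5%. Among out-of-frame rearrangements the values were 73.6% ± 6.0 and 69.8% ± 11.8, ranks 8 and 11. Trbj2-7 was the commonest partner in the TdLN, with 120 of 573 Trbv14 TCRs and 109 of 419 Trbv15 TCRs, 20.9% and 26.01%, beside 22.02% of other V genes. Trbj2-1 followed with 12.9% and 14.6%. Trbj1-6 was joined to 19 Trbv14 TCRs and 3 Trbv15 TCRs, a difference that was not tested.

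In tumor 1, Trbj2-7 and Trbj2-1 were joined to 19 and 15 of 62 Trbv14 TCRs, 30.6% and 24.2%, and to 11 and 7 of 40 Trbv15 TCRs. Trbj1-4 and Trbj1-5, the partners of 37 and 11 Trbv14 TCRs in the TdLN, were each joined to 0 of 62 in tumor 1. A count of 0 there allows a share of up to 4.84%. Among TCRs of other V genes in tumor 1 they made up 4.86% and 3.72%, and these differences were not tested. The Trbj2 share of Trbv14 TCRs was 100%, 88.9%, 60.0%, 81.8% and 93.8% in tumor 1 of mice 1 to 5, a mean of 84.9% and higher than the TdLN in 4 of 5 mice. The difference of 9.16 percentage points (SD 21.3, exact permutation test, adjusted p = 0.679) was within the spread. For Trbv15 the mean was 75.8% ± 19.9, a difference of 0.488 (SD 22.1, adjusted p = 0.992). No V gene of the 19 with TCRs in all 10 samples, 0%, passed this test, with 5 below the threshold unadjusted.

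**Figure D5:**
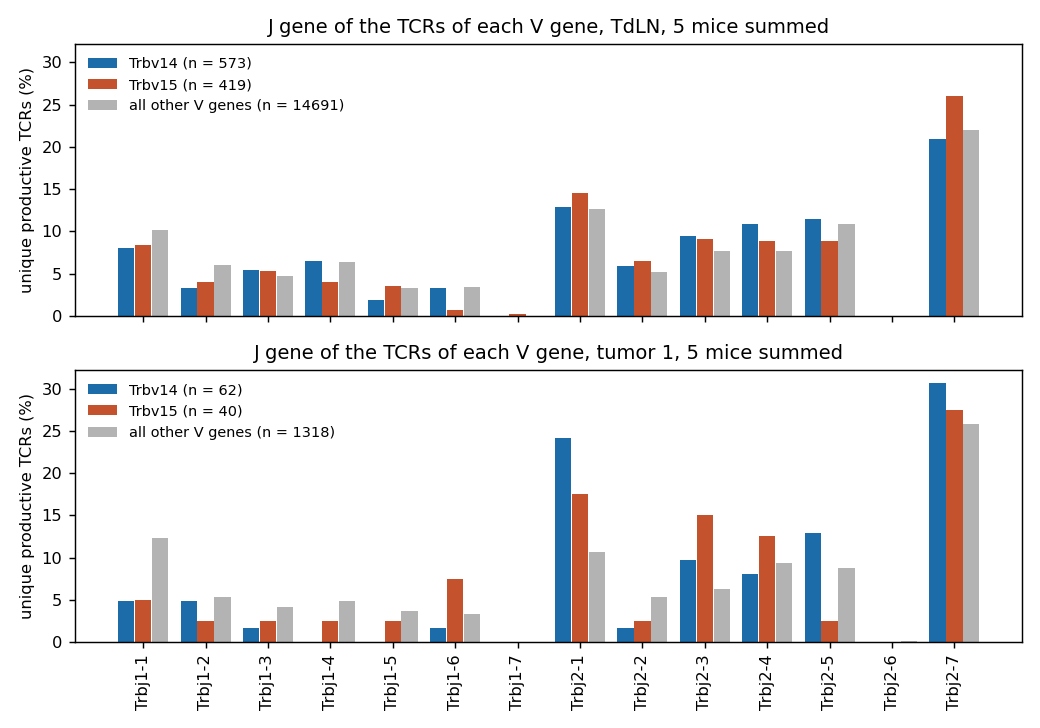
J gene of the unique productive TCRs that use Trbv14, Trbv15 or any other V gene, in percent, summed over the 5 mice of the TdLN (upper panel) and of tumor 1 (lower panel). Bars stand for pooled percentages without error, and n is the number of TCRs. Trbj2-7 is the tallest group in both tissues. Of the J genes with a Trbv14 bar in the TdLN, Trbj1-4 and Trbj1-5 have none in tumor 1.

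The CDR3 of both genes was most often 42 bases long. That length held 29.8% of Trbv14 and 30.1% of Trbv15 TCRs in the TdLN, and 25 of 62 and 16 of 40 in tumor 1. Mean lengths in the TdLN were 41.6 ± 0.5 and 41.4 ± 0.4 bases (SD, n = 5). In tumor 1 the Trbv14 means by mouse were 44.7, 44.0, 39.0, 41.5 and 40.9 bases, a difference of 0.44 bases from the TdLN (SD 2.13, exact permutation test, adjusted p = 0.984). Those of Trbv15 were 37.5, 40.8, 38.3, 39.8 and 41.6 bases, a difference of -1.82 (SD 2.04, exact permutation p = 0.0397, adjusted p = 0.188). No V gene passed (0%), with 4 below the threshold unadjusted, and without the TCRs that differed from their V gene the Trbv15 difference was -0.742.

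Trbv15 ends were trimmed more than those of Trbv14. In the TdLN, productive Trbv15 TCRs had lost 4.001 ± 0.53 V bases and Trbv14 TCRs 2.996 ± 0.29 (SD, n = 5), the second highest mean and rank 10 of 20 V genes. Trbv15 was higher in 5 of 5 mice, and Trbv14 minus Trbv15 ran from -1.42 to -0.553 bases. Out-of-frame rearrangements gave the same order, 4.89 ± 0.86 against 3.38 ± 0.59, and Trbv15 was then the highest of the 20. TCRs that kept the whole V end were 2.33% for Trbv15 and 7.80% for Trbv14, below the median of 17.7%. The mean number of N bases in productive TCRs did not separate the pair, at 3.66 ± 0.14 for Trbv14 and 3.70 ± 0.28 for Trbv15. TCRs without N bases were 13.1% ± 4.2 for Trbv14 and 8.47% ± 3.67 for Trbv15, a difference of 0.264 to 8.86 percentage points by mouse. Out of frame the mean number was 4.16 ± 0.47 for Trbv14 and 4.82 ± 0.76 for Trbv15, ranks 14 and 1 of the 20 V genes. These differences were not tested.

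In tumor 1 the mean V trimming of Trbv15 was 7.31 ± 3.21 bases against 4.001 ± 0.53 in the TdLN (exact permutation p = 0.0635, adjusted p = 0.490), and no V gene passed (0%), with 1 unadjusted. Without the TCRs that differed from their V gene at 3 or more bases it was 4.12 ± 1.02 against 3.77 ± 0.41, so most of that difference lay in the 9 TCRs with an uncertain V name. For Trbv14 the means were 2.991 ± 0.68 and 2.996 ± 0.29. N insertions in tumor 1 were 3.86 ± 1.09 for Trbv14 and 4.70 ± 2.72 for Trbv15, each with an adjusted p of 1.0 and 0% of V genes called, 1 of them unadjusted.

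By Spearman correlation of the share of unique TCRs over the 15 samples, the V genes most like Trbv14 were Trbv13-2 (rho = 0.482), Trbv29 (0.45) and Trbv2 (0.425). Those most like Trbv15 were Trbv13-3 (0.464), Trbv17 (0.464) and Trbv19 (0.343). The samples share mice and differ in depth, and shares within a sample sum to 100%, so these weak values are a description of the samples only.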

How the data were processed

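Rearrangements of the TCR β locus were measured with the immunoSEQ assay on genomic DNA of sorted CD8+ PD-1+ T cells in 15 samples. The deposited counts are whole templates per distinct 87-base rearrangement, 1 table per sample, as the assay provider made them; the deposited values of other kinds used here are CDR3 length, trimmed bases and N insertions. The submitters' processing notes name the build mm10, and assay software is not given in the sources used here. Of 29992 rearrangements, 16 lacked a V gene and were left out of shares. Coordinates and germline bases came from GRCm38 with GENCODE annotation. The 1174 productive CDR3s of the 2 genes translated to the listed CDR3 over the bases printed.

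The members and lists were chosen with earlier results of these data known. Named were the 2 genes, their neighbours, the 3 V genes most like each, J genes, and rearrangements that were the largest of a tissue or of a tumor 1 sample or were found in most mice. Differences between tissues were tested per V gene with two-sided exact permutation tests (5 against 5), adjusted by Benjamini-Hochberg over the 20 V genes that averaged 1% or more of unique TCRs, and productive against out-of-frame shares with exact sign-flip tests, in Python 3.11.15 (numpy 2.4.6, scipy 1.17.1). The scripts were tested on simulated data. Alternatives included edgeR 4.0.16 (quasi-likelihood, TMM or RLE, with or without mouse as a block). Samples with the same number were taken as the same mouse. Tumor 1 had 11.5% to 49.2% of its TCRs in the TdLN of its own number and at most 4.75% in another. Tumor 2 had 1.55% to 26.0% and up to 18.1%, and for mouse 5 the TdLN of its number held 5.42% of the TCRs of tumor 2 and the TdLN of mouse 4 held 5.24%, so overlap bears out the number less well for tumor 2. Library names in the labels spell the untreated group in capitals for mice 1 to 3 but not for the other mice, so values were also computed within each of these sets. Each group holds 1 sample per mouse, and p-values rest on the spread between samples. The permutation tests did not pair the tissues of a mouse, whereas the sign-flip tests did. Samples of different mice also shared rearrangements, so neither the groups nor the mice were fully independent. Near-copies were rearrangements that matched a clone with at least 50 times the templates in the last 40 bases. A share of 0 allows 3 of the total.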

Additional observations from a re-analysis of the deposited data

Results flagged for a closer look

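In 36 groups of 5 samples, 1 sample lay far from the others of its group in 5. Chance alone marks about 1 in 20 such groups if they are independent and their values normally spread. The groups here share samples, and some shares rest on single clones, so that rate is only a rough guide. The Trbv14 share of templates in tumor 1 of mouse 5 was 19.8%, and the same share without the largest clone in tumor 2 of mouse 5 was 1.76%. The Trbj2 share of Trbv14 TCRs in tumor 2 of mouse 3 was 0.0%, over 3 TCRs. The Trbv15 share of templates was 1.24% in the TdLN of mouse 1 and 4.57% in tumor 2 of mouse 3.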

How the results depend on the processing

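Of 325 alternative values over 19 results, 262 kept their direction and their side of the threshold, or moved by less than the spread, and 39 changed sign. Differences are in percentage points unless given as log2, and the cause of each change was not tested. For Trbv15 unique shares, tumor 1 minus TdLN was 0.378 by CDR3 amino acids, 0.185 without rearrangements of another mouse, 0.0647 without near-copies, and log2 0.14 (edgeR TMM), 0.14 (RLE) and 0.12 (replicate block); tumor 2 minus TdLN was -0.277 without TCRs 3 or more bases off their V gene, -0.141 without tumor 2 of mouse 4, and log2 -0.0624, -0.16 and -0.0561 (replicate block); tumor 1 minus tumor 2 was 0.0941 by amino acids, 0.0141 without near-copies, 0.131 without tumor 2 of mouse 4, and log2 0.10, 0.16 and 0.12 (replicate block). Leaving out a mouse gave -0.242 to 0.291, -0.189 to 0.531 and -0.426 to 0.0722. For Trbv14 unique shares, tumor 1 minus TdLN was 1.92 in mice 4 and 5 and -0.200 to 0.62503 with a mouse left out. V genes called there numbered 4 by amino acids, 4 without near-copies, 4 without TCRs off their V gene, 3 in edgeR TMM, 3 in RLE and 2 with the replicate block, against 0.

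For templates, tumor 1 minus TdLN in Trbv14 was -1.61 without the largest clones, -2.11 by medians and -2.29 to 2.59 with a mouse left out. In Trbv15 the call was lost with the replicate block in the exact sign-flip test (-1.97), over every V gene (-1.97), with at least 2 templates (-1.97), without near-copies (-1.98), without rearrangements of another mouse (-0.923), by medians (-2.26), in edgeR (log2 -1.34 TMM, -1.28 RLE, -1.47 replicate block) and with any mouse left out (-2.19 to -1.88, where 4 against 4 samples could pass only if 12 V genes reached the smallest p). Tumor 2 minus TdLN in Trbv14 was 0.0267 in mice 4 and 5, and passed at -2.31 without tumor 2 of mouse 4; in Trbv15 it was 0.0273 without rearrangements of another mouse, passed at -1.01 without the largest clones, and was log2 0.28 (TMM) and 0.50 (RLE). Trbv14, tumor 1 minus tumor 2, was -0.230 to 4.42 with a mouse left out. The Trbv14 CDR3 difference was -0.171 to 1.21 bases with a mouse left out. The Trbv15 Trbj2 difference was -3.55 with at least 2 templates, -0.646 without near-copies, -3.23 without rearrangements of another mouse, -1.003 weighted by templates and -5.42 to 7.996 with a mouse left out. Alternatives without TCRs off their V gene and without a tumor 2 sample were chosen after seeing the data. Tumor samples with few TCRs of either gene limit the precision.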
